A study of Canis lupus familiaris with 34 samples.

Results

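The ADAMTS, MMP and TIMP metalloproteinase system was analysed in mitral valve RNA of 34 Cavalier King Charles Spaniels. Its members were taken by symbol, as every numbered ADAMTS proteinase, every numbered matrix metalloproteinase (MMP, with the letters A and B allowed) and TIMP1 to TIMP4. The rule used no measured value, and it found 47 genes among the 22035 gene symbols of the count table, of which 19 were ADAMTS, 24 were MMP and 4 were TIMP genes. A symbol with 2 features was read from its canine RefSeq feature. In total 43 members reached the minimum sum of 100 counts over all dogs and were tested.

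These zinc-dependent enzymes are secreted or held at the cell surface, and they cut the collagens, proteoglycans, elastic microfibrils and glycoproteins of the extracellular matrix. TIMPs are their tissue inhibitors, each binding enzymes one to one, and TIMP3 is the main inhibitor of the aggrecan-cutting ADAMTS enzymes. A mitral leaflet is built of layers of collagen, proteoglycan and elastin kept by valve interstitial cells, and myxomatous mitral valve disease (MMVD) is a loss of order in these layers with a build-up of proteoglycan. Transcript levels say nothing of the activation of a proenzyme or of its inhibition.

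The 10y-noCHF group held 19 dogs of about 10 years without congestive heart failure (CHF), 10 of them females and 9 males, which the deposited labels call controls. By the study's description this group mixes ACVIM stages A, B1 and B2 (ACVIM stages grade canine MMVD from at-risk to heart failure), and the stages are not paired with dogs, so it is not a group of healthy valves. The 10y-MMVD-CHF group held 15 dogs of the same breed, also of about 10 years, with CHF caused by MMVD, 6 females and 9 males. By the study's description ages varied within both groups, and they are not paired with dogs. The groups are called noCHF and CHF from here on. Polyadenylated RNA of whole valves from privately owned dogs was sequenced, 1 library per dog, and total counts ranged from 46185256 to 82361245 per dog.

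As a check of the tissue, all 8 valve interstitial markers (such as VIM, DCN and COL1A1) were tested, and their summed level ranged from 12730 to 32700 normalised counts (CPM, which put every dog on the same sequencing depth) in 10y-noCHF and from 14970 to 33450 CPM in 10y-MMVD-CHF. Heart muscle RNA was present to a very unequal degree. The summed level of 19 cardiomyocyte markers ranged from 85.1 to 27930 CPM in 10y-noCHF, with a median of 3793, and from 85.6 to 58280 CPM in 10y-MMVD-CHF, with a median of 5185. In bulk tissue, fewer cells of a type and less RNA per cell cannot be told apart.

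Of the 43 members tested, 1 had a false discovery rate (FDR) below 0.1 between the groups, which was ADAMTS6, lower in CHF. The test was edgeR's quasi-likelihood test with sex as a fixed effect, adjusted over all 19568 features, of which 23 or 0.118% were called (0.092% lower and 0.0256% higher). At an unadjusted p below 0.05 there were 4 members, ADAMTS6 and ADAMTS19 lower in CHF and ADAMTS5 and MMP13 higher. Over all features the same threshold was passed by 6.31%, with 3.51% lower and 2.8% higher. The estimate was below 0 for 26 members and above 0 for 17, beside 9273 and 10295 of all 19568 features. The 26 hold MMP1, MMP3 and MMP10, which share reads, and MMP23A and MMP23B, which do so too. The median log2 fold change of the members was -0.06, beside 0.0076 for all features, and the median absolute log2 fold change was 0.18, beside 0.09 for all features. DESeq2 called 0.327% of all features and 2 members, ADAMTS6 and ADAMTS19.

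**Figure D1:**
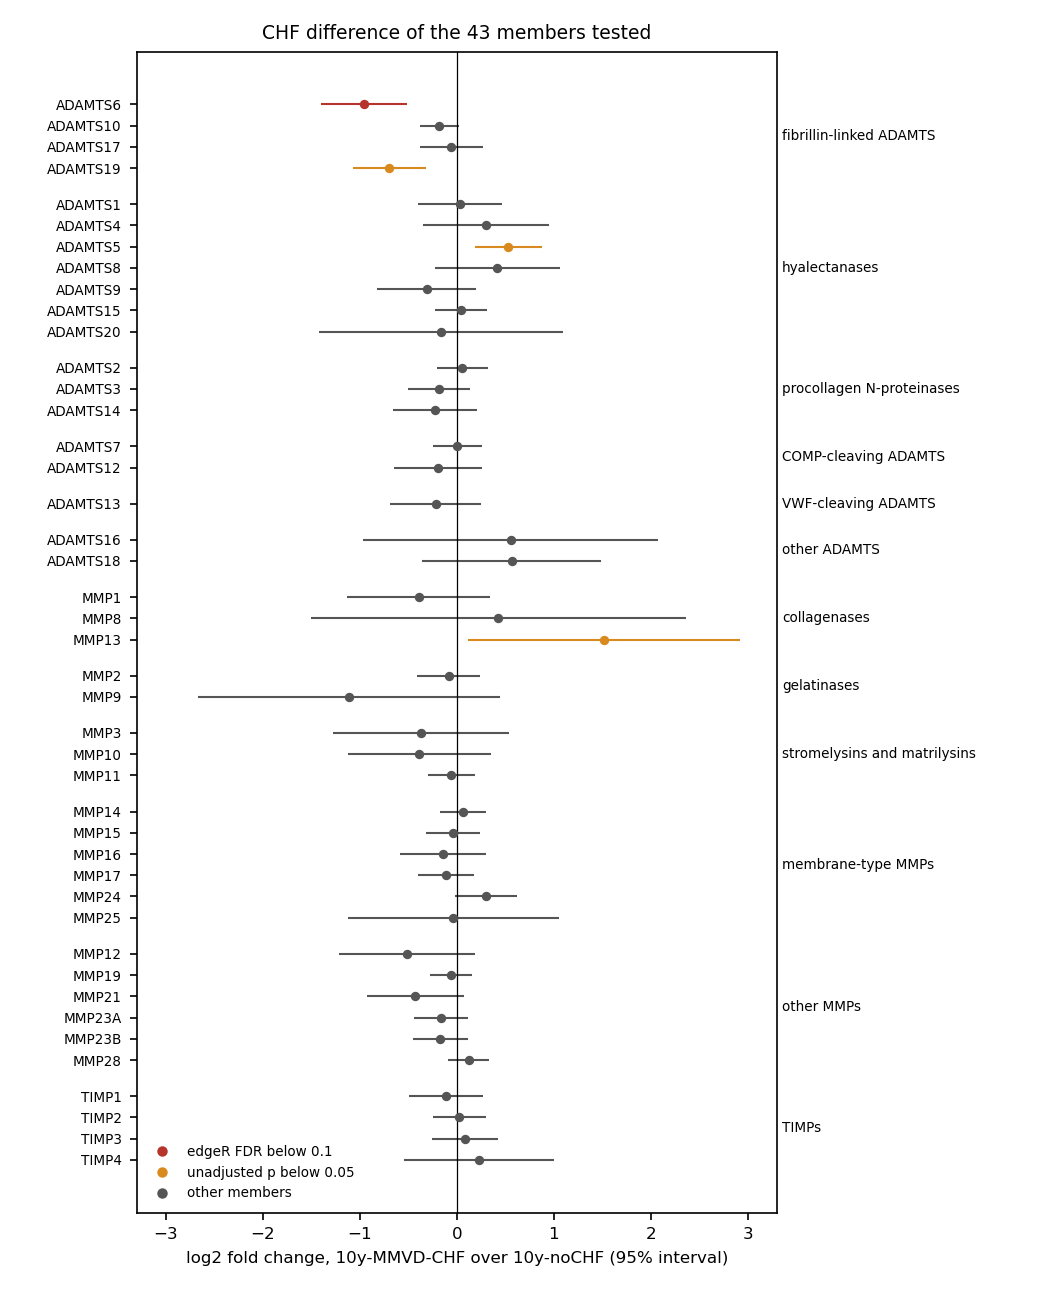
Log2 fold change of 10y-MMVD-CHF (n = 15) over 10y-noCHF (n = 19) for the 43 members tested, with the 95% interval from edgeR, ordered by role; the x axis is in log2 units. The interval of ADAMTS6 (red, FDR below 0.1) and those of ADAMTS19, ADAMTS5 and MMP13 (orange, unadjusted p below 0.05) lie off 0, and the other 39 cross it.

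Of the ADAMTS enzymes listed as fibrillin-linked, ADAMTS6, ADAMTS10 and ADAMTS17 act on or bind the microfibril network, and ADAMTS19 was grouped with them. All 4 had estimates below 0 (from -0.96 to -0.06 on the log2 scale), with 1 passing the FDR threshold. The list was drawn with earlier results of these data known, which name ADAMTS6 and ADAMTS19, so the shared sign cannot be read as a trait of the class. The unadjusted edgeR p was 0.0749 for ADAMTS10 and 0.727 for ADAMTS17. ADAMTS6 lies on the minus strand of chromosome 2 (canFam4, 50181561 to 50477206) and is a close relative of ADAMTS10. In noCHF its lowest, median and highest levels were 6.74, 27.5 and 46.5 CPM, and in CHF they were 4.13, 12.3 and 31.7 CPM. The groups overlapped, but 14 of 15 CHF dogs lay below the noCHF median, and 6 noCHF dogs lay above every CHF dog. CHF dogs were 1.94-fold lower, a log2 fold change of -0.96 with a standard error of 0.22 (FDR = 0.0943 with edgeR and 0.00536 with DESeq2). ADAMTS6 had the lowest p of all members and took place 23 among all features, so it was the last feature called.

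The ADAMTS6 difference was seen in both sexes. Its median was 25.8 CPM in noCHF females and 10.9 CPM in CHF females, and every CHF female lay below that noCHF median, with the highest at 12.3 CPM. In males the medians were 27.5 and 14.2 CPM. The interaction of CHF and sex was 0.60 on the log2 scale (edgeR unadjusted p = 0.163, FDR = 0.886). On leaving out single dogs, the log2 fold change ranged from -1.06 to -0.87. The FDR ranged from 0.0151 to 0.239, and the call was lost on leaving out any of 26 dogs. It remained without CAV285, CAV487, CAV743, CAV865, CAV1041, CAV1049, CAV1114 or CAV1731.

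ADAMTS19, an enzyme in which loss-of-function variants are known to cause heart valve disease in people, lies on chromosome 11 (18199044 to 18428115, plus strand). It had 13.3, 30.2 and 52.6 CPM as lowest, median and highest level in noCHF and 9.78, 17.1 and 29.8 CPM in CHF. All 15 CHF dogs lay below the noCHF median, 10 noCHF dogs lay above every CHF dog and 4 CHF dogs lay below every noCHF dog. Its log2 fold change of -0.69 (standard error 0.19, unadjusted p = 0.000706) did not pass with edgeR (FDR = 0.305), although it did with DESeq2 (FDR = 0.0624). No relation between ADAMTS6 and ADAMTS19 levels across dogs was detected after group and sex means were removed (n = 34, Pearson's r = 0.23, Spearman's rho = 0.19, permutation p = 0.234 and 0.297, adjusted p = 0.361 and 0.419).

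ADAMTS10, which supports fibrillin microfibril assembly, had 12.8, 22.03 and 32.9 CPM in noCHF and 15.8, 18.4 and 24.6 CPM in CHF. Here 13 of 15 CHF dogs lay below the noCHF median, and the log2 fold change was -0.18 (standard error 0.10, FDR = 0.813). ADAMTS17 had a log2 fold change of -0.06 (FDR = 0.979).

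**Figure D2:**
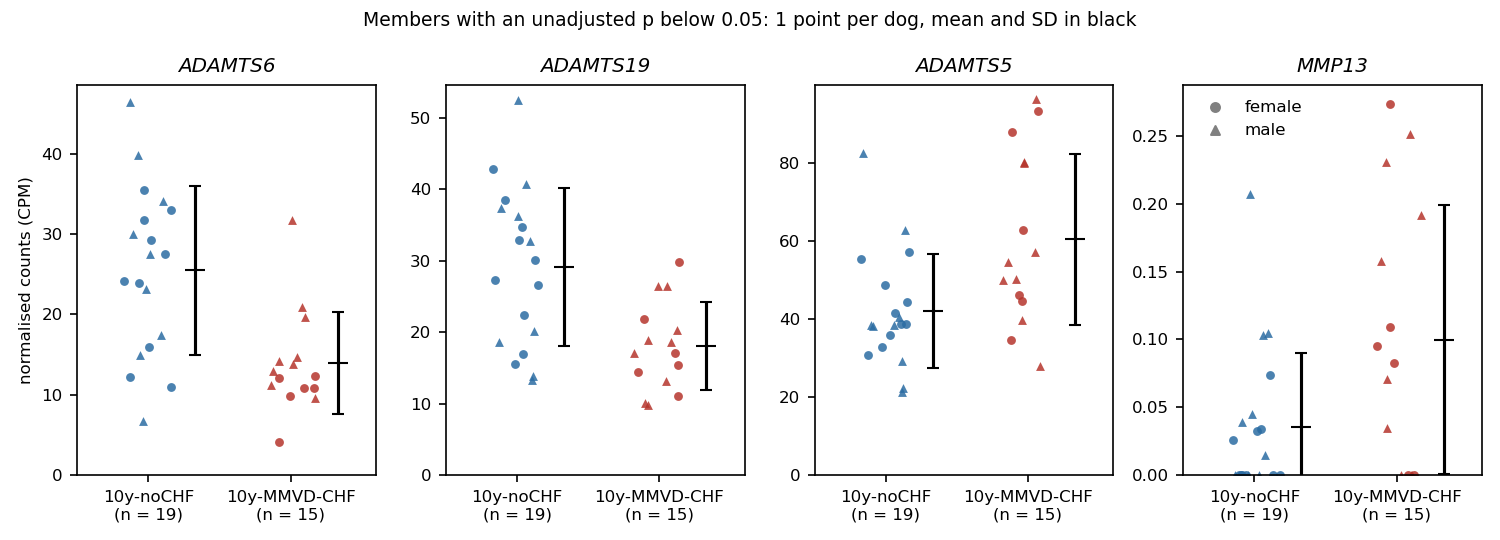
Normalised counts (CPM, y axis from 0) of the 4 members with an unadjusted p below 0.05, 1 point per dog (circles females, triangles males), with the group mean and SD in black; the lower SD bar of MMP13 in 10y-noCHF is cut at 0. The groups overlap in each panel, with ADAMTS19 of all 15 10y-MMVD-CHF dogs below the 10y-noCHF median of 30.2 CPM.

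The hyalectanases ADAMTS1, 4, 5, 8, 9, 15 and 20 cut aggrecan and versican, the large proteoglycans that fill the spongy layer of the leaflet. Of these 7 members none passed the FDR threshold, 5 had estimates above 0 and 2 below, and the median log2 fold change was 0.045. ADAMTS5, on the minus strand of chromosome 31 (22794063 to 22841550), had 21.3, 38.6 and 82.5 CPM in noCHF and 27.99, 54.6 and 96.2 CPM in CHF. The ranges overlapped widely, with 13 of 15 CHF dogs above the noCHF median and 3 above every noCHF dog. With edgeR the log2 fold change came to 0.53 (standard error 0.17, unadjusted p = 0.00383, FDR = 0.448), and to 0.68 with limma voom and sample weights, where it passed (FDR = 0.0869). In that fit ADAMTS6 did not pass (FDR = 0.105).

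The other hyalectanases spread widely among dogs. ADAMTS1 ranged from 30.3 to 99.3 CPM in noCHF and from 20.2 to 168 CPM in CHF, and its log2 fold change of 0.03 (FDR = 0.991) changed sign between settings. ADAMTS4 had medians of 7.37 and 10.6 CPM in noCHF and CHF, and its log2 fold change was 0.30 (standard error 0.32, FDR = 0.938). ADAMTS15 was level between the groups, at medians of 64.9 and 70.2 CPM with a 95% interval of the log2 fold change from -0.22 to 0.31. ADAMTS8 ranged up to 37.5 CPM in noCHF and up to 116 CPM in CHF, and ADAMTS20 from 0.03 to 10.4 CPM over all dogs.

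The procollagen N-proteinases ADAMTS2, ADAMTS3 and ADAMTS14 trim the amino-terminal propeptide from fibrillar procollagens or, for ADAMTS3, also process VEGF-C. None of the 3 passed, with log2 fold changes of 0.06, -0.18 and -0.22. ADAMTS2 was the 1 member with an unadjusted p below 0.05 for the interaction of CHF and sex (-0.55, p = 0.0322, edgeR FDR = 0.817), where 6.02% of all features had such a p and 0 of 19568 passed the FDR threshold with edgeR. Its medians were 96.8 and 130 CPM in noCHF and CHF females, and 126 and 112 CPM in the males. DESeq2 also called 0 members for the interaction.

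The COMP-cleaving enzymes ADAMTS7 and ADAMTS12 had log2 fold changes of 0.0057 and -0.19. The ADAMTS7 interval also holds the pseudogene feature ADAMTS7P1 with 99.7% of its counts, so the 2 cannot be told apart. ADAMTS13, the protease that trims von Willebrand factor (VWF) multimers, had 0.44, 1.12 and 2.50 CPM in noCHF and 0.60, 0.99 and 1.90 CPM in CHF (log2 fold change -0.22, standard error 0.23, FDR = 0.937). Its substrate VWF, a member of the fixed substrate list, was higher in CHF, at 205 ± 125 CPM (SD, n = 15) against 79.6 ± 50.4 CPM (SD, n = 19), with a log2 fold change of 1.40 (edgeR FDR = 0.0678). No relation between ADAMTS13 and VWF was detected across the 34 dogs (Pearson's r = -0.232, Spearman's rho = -0.217, permutation p = 0.204 and 0.236, adjusted p = 0.34 and 0.419). ADAMTS16 and ADAMTS18, whose roles are less settled, were near the limit of detection, with medians of 0.18 to 0.38 CPM by group.

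The collagenases open the triple helix of fibrillar collagen. MMP13 (chromosome 5, 28994101 to 29004680, plus strand) had the highest estimate of all members, a log2 fold change of 1.52 (95% interval 0.12 to 2.92, unadjusted p = 0.0342, edgeR FDR = 0.761). It rested on 138 counts in all, 41 in noCHF and 97 in CHF. The median count was 1 in noCHF, where 9 dogs were at 0 and the highest had 12, and 6 in CHF, where 5 dogs were at 0 and the highest had 20. Neither the noCHF counts nor the CHF counts alone would have reached the minimum of 100. MMP8, the collagenase of neutrophils, had 470 counts, of which 206 were in the CHF dog CAV614. With that dog its log2 fold change was 0.43 and without it -1.01, neither past the threshold.

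MMP1 cannot be read on its own. Its counted interval covers most of MMP3, and that of MMP10 covers nearly all of both, so most reads of MMP3 were counted for the other 2 as well. The features held 43731 counts for MMP10, 39719 for MMP1 and 19214 for the whole span of MMP3. The count of MMP1 less that of MMP3 came to 20505, or 46.9% of the MMP10 total, and only 4012 counts or 9.17% fell in MMP10 and not in MMP1. The RefSeq gene table used here lists MMP1 and MMP3 in this interval and no MMP10. The 3 features had log2 fold changes of -0.39, -0.36 and -0.39 for MMP1, MMP3 and MMP10, with FDR values of 0.921, 0.945 and 0.923, and they are not 3 separate observations.

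**Figure D3:**
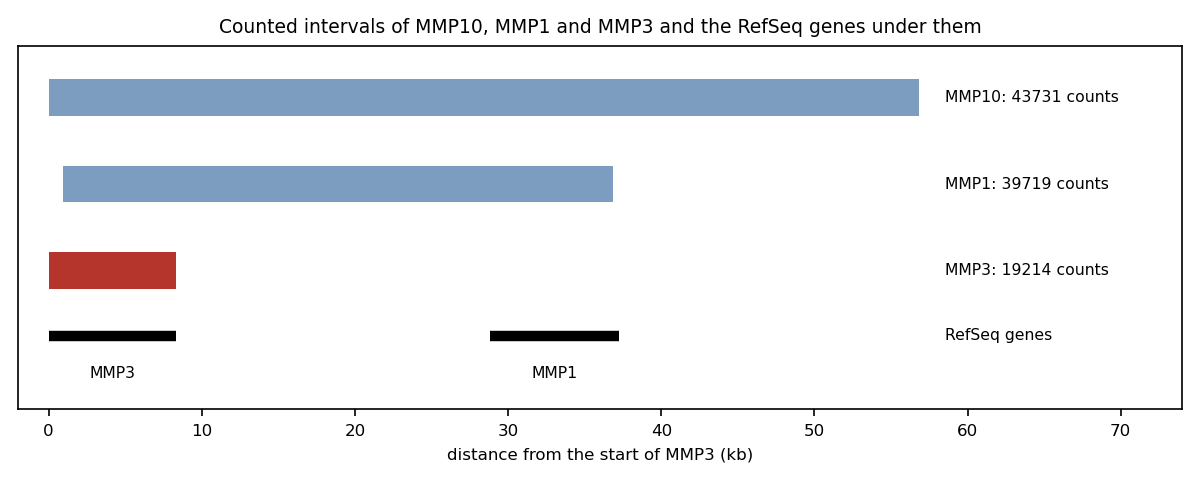
Counted intervals of MMP10, MMP1 and MMP3 as distance from the start of MMP3 (x axis, kb), with the counts over all 34 dogs beside each bar and the RefSeq genes in black below. The MMP10 interval covers nearly all of the other 2, whose counts of 39719 and 19214 are also part of its 43731.

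The stromelysin MMP3 had 1.36, 9.17 and 25.1 CPM in noCHF and 0.85, 3.56 and 30.4 CPM in CHF. Dogs within a group spread over more than the gap between the medians (standard error of the log2 fold change 0.45). MMP11 (stromelysin-3) was far steadier, from 2.43 to 7.21 CPM over all dogs, with a 95% interval from -0.30 to 0.19. The matrilysins MMP7 and MMP26 had 8 and 2 counts in all and were not tested.

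The gelatinases cut denatured collagen and basement membrane. MMP2 was one of the most abundant members, with 417, 793 and 1583 CPM in noCHF and 433, 734 and 1138 CPM in CHF, and the groups overlapped over most of their range. The log2 fold change was -0.08, with a 95% interval from -0.40 to 0.24 (FDR = 0.968). MMP9 was scarce, at 839 counts in all, with medians of 0.35 CPM in noCHF and 0.18 CPM in CHF. It was at 0 in 3 and 4 dogs, and the log2 fold change of -1.11 had a standard error of 0.77 (FDR = 0.864). SLC12A5-AS1 on the other strand covers 25.5% of the counted bases of MMP9, whose counts may therefore hold reads of that gene.

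Membrane-type MMPs are anchored at the cell surface, MMP14, MMP15, MMP16 and MMP24 by a transmembrane domain and MMP17 and MMP25 by a lipid anchor. None of the 6 passed. MMP14, which activates proMMP2 on the cell surface with the help of TIMP2, had 109, 168 and 202 CPM in noCHF and 82.0, 171 and 264 CPM in CHF (log2 fold change 0.06, 95% interval -0.17 to 0.30). MMP24 had medians of 8.22 and 10.6 CPM, with 12 of 15 CHF dogs above the noCHF median (log2 fold change 0.30, unadjusted p = 0.0612, edgeR FDR = 0.803). Its interval overlaps MMP24OS and MMP24-AS1-EDEM2 on the other strand, and that of MMP25 lies wholly within ZNF213 on the same strand. Counts of MMP24 and MMP25 may therefore hold reads of these genes.

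Among the remaining MMPs, none of the 6 tested passed, and 5 had estimates below 0. MMP12, the elastase of macrophages, had medians of 8.55 CPM in noCHF and 6.84 CPM in CHF (log2 fold change -0.51, standard error 0.34, FDR = 0.859). MMP21 had medians of 2.47 and 1.72 CPM, with 14 of 15 CHF dogs below the noCHF median (log2 fold change -0.43, standard error 0.25, unadjusted p = 0.0914, edgeR FDR = 0.837). MMP23A and MMP23B are 1 locus in these data, since 97.1% of the counts of MMP23A lay in MMP23B, and the RefSeq table lists a single MMP23. MMP19 and MMP28 had 95% intervals from -0.28 to 0.15 and from -0.09 to 0.34. MMP20, the enamel enzyme, and MMP27 had 22 and 98 counts in all and were not tested.

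None of the 4 TIMPs passed. TIMP3, which is held in the matrix, had 324, 728 and 1196 CPM in noCHF and 413, 866 and 1220 CPM in CHF (log2 fold change 0.09, 95% interval -0.25 to 0.42). TIMP2 had medians of 330 and 341 CPM (0.02, interval -0.25 to 0.30), and TIMP1 medians of 120 and 119 CPM (-0.11, interval -0.49 to 0.27). The intervals of TIMP1, TIMP2 and TIMP3 reach at most a 1.40-fold change in either direction. TIMP4, the inhibitor known from heart muscle, was scarce at medians of 1.28 and 1.30 CPM, and its interval from -0.55 to 0.998 was wide. The counted exons of TIMP1, TIMP2, TIMP3 and TIMP4 overlap SYN1, C1QTNF1, SYN3 and SYN2 on the other strand, so their counts may hold reads of these genes. SYN2 held 38704 counts, beside 3066 for TIMP4.

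Sex alone gave no called member. At an unadjusted p below 0.05 there was 1 of 43 with edgeR (2 with DESeq2), ADAMTS8, lower in males by a log2 fold change of -0.73 (p = 0.0286, edgeR FDR = 0.9997), where 2.98% of all features passed the same threshold and 0.143% passed the FDR threshold.

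Levels of different genes were compared per kilobase of the counted feature, and only within a kind of feature. The canine RefSeq features count annotated exon intervals, called exons here (11 members). The human XenoRefSeq features aligned to the dog genome are intervals that together cover more than 90% of the gene span, introns included (36 members). Among the 10 exon features tested, TIMP3 had the highest level, with a median of 982 CPM per kilobase over all dogs (range 380 to 1434), followed by TIMP2 at 507 (270 to 830.0) and TIMP1 at 155 (61.7 to 391). The ranges of these neighbours overlapped, and each of these features overlaps a gene of the other strand, as given above. A wide gap followed, since ADAMTS10, next in order, had a median of 5.65 and a highest value of 9.85, below the lowest TIMP1 value. MMP3, MMP12 and MMP11 had medians of 4.68, 3.67 and 3.27, TIMP4 1.74, ADAMTS13 0.22 and MMP9 0.09, each with a range that overlapped that of its neighbour.

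Of the 33 members read from a span feature, MMP2 led with 29.2 CPM per kilobase (16.3 to 62.0), followed by MMP23B with 16.7, MMP14 with 16.1 and MMP19 with 10.9, whose ranges overlapped. The MMP23B interval lies wholly within the CDK11A and CDK11B features of the other strand, and TMEM198B covers 6.96% of that of MMP19. Their levels may therefore hold reads of these genes. ADAMTS1, at 4.94, and ADAMTS15, at 2.76, were the highest ADAMTS spans. ADAMTS19 and ADAMTS6 had 0.092 and 0.056 over their long intervals, and MMP8, MMP13, ADAMTS16 and ADAMTS18 stood last. The kind of feature matters for the level. Where a symbol had both kinds, the RefSeq feature held 98.8% of the span's counts for MMP3 and 97.8% for TIMP1, but 17.6% for TIMP3 and 27.5% for TIMP2. The RefSeq features of TIMP3 and TIMP2 cover only 851 and 671 bases. Where the other counts lay within the span was not tested, so they cannot be taken as intron reads. Read over their spans, TIMP3, TIMP1 and TIMP2 had medians of 82.6, 34.8 and 26.0 CPM per kilobase, so that the order of TIMP1 and TIMP2 turned and TIMP3 and TIMP1 stood above MMP2. For the 10 pairs tested the 2 features gave log2 fold changes of the same sign.

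**Figure D4:**
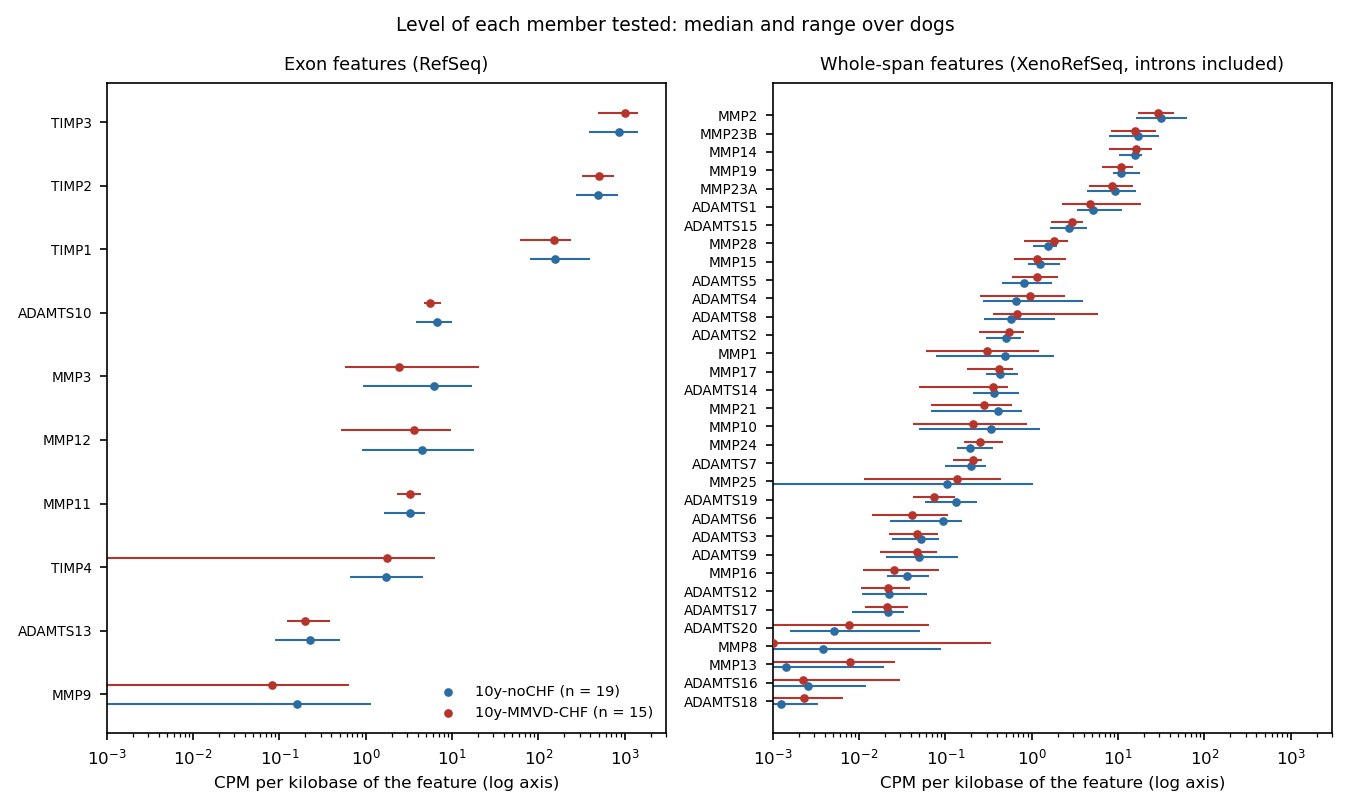
Level of each member tested in CPM per kilobase of its counted feature (log x axis), as median (point) and range over dogs (line), for 10y-noCHF (blue, n = 19) and 10y-MMVD-CHF (red, n = 15); values under 0.001 are drawn at the left edge. TIMP3, TIMP2 and TIMP1 stand above the other exon features (left), and MMP2 leads the members read from spans (right), which are not comparable with the left panel.

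Pairs of related enzymes, of enzyme and inhibitor, and of enzyme and substrate were compared across dogs on log2 CPM with group and sex means removed. Pearson's and Spearman's correlation were used with permutation within group and sex, adjusted over 20 pairs. In 6 pairs the adjusted p of Spearman's rho was below 0.1. The share of other gene pairs that are as closely related was not computed, so the count cannot be read as a trait of these pairs. The closest was MMP2 with TIMP2 (n = 34, r = 0.856, rho = 0.817, permutation p = 1e-05 for both, the smallest they can give, adjusted p = 0.0002). With 2 dogs left out, those farthest from the MMP2 median, r was 0.83, and rho was 0.818 within CHF and 0.816 within noCHF. MMP14, the third part of this activation complex, followed MMP2 (r = 0.605, rho = 0.575, permutation p = 0.00013 and 0.00105, adjusted p = 0.000867 and 0.00525, r = 0.583 without 2 dogs). Within the groups its rho with MMP2 was 0.375 in CHF and 0.696 in noCHF. MMP14 with TIMP2 was weaker (r = 0.514, rho = 0.471, permutation p = 0.00198 and 0.00888, adjusted p = 0.00792 and 0.0355, r = 0.456 without 2 dogs), and its rho passed neither within a group (0.243 in CHF and 0.433 in noCHF) nor without the 2 dogs (0.408, adjusted permutation p = 0.156).

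ADAMTS1 went with ADAMTS9, another versican-cutting enzyme, whose interval also holds the antisense feature ADAMTS9-AS1 with 21.1% of its counts (r = 0.633, rho = 0.655, permutation p = 4e-05 and 2e-05, adjusted p = 0.0004 and 0.0002, r = 0.705 without 2 dogs, rho 0.675 within CHF and 0.575 within noCHF). It ran against its substrate VCAN, the gene of versican (r = -0.558, rho = -0.613, permutation p = 0.00137 and 0.0004, adjusted p = 0.00685 and 0.00267, r = -0.518 without 2 dogs, rho -0.618 and -0.577 within the groups). When the mean of the cardiomyocyte markers was removed as well, neither of these 2 relations passed (rho = 0.306 and -0.313, adjusted p = 0.284 for both). MMP2 with TIMP2 kept a rho of 0.794 in that setting (adjusted p = 0.0002). The valve interstitial mean, which MMP2 and TIMP2 both followed (values below), was not removed from any pair, so its part in their relation was not tested. ADAMTS16 with ADAMTS18 was the last called pair (r = 0.371, rho = 0.414, permutation p = 0.0343 and 0.0187, adjusted p = 0.0857 and 0.0623). Its rho did not pass within either group, without 2 dogs (rho = 0.393, r = 0.337) or with the cardiomyocyte mean removed (rho = 0.143, adjusted permutation p = 0.578).

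Many members followed the level of heart muscle markers in the sample. Against the cardiomyocyte mean (19 markers, log2 CPM), 26 of 43 members had an adjusted p below 0.1 for Spearman's rho (12 positive and 14 negative), all with an absolute rho of at least 0.411. Of all features tested 35.2% reached that absolute rho (18.4% positive and 16.8% negative), beside 60.5% of the members. Within CHF and within noCHF the number of members called was 21 each, where 29.1% and 28.7% of all features were as far from 0 as the weakest of them. With the 2 most extreme dogs left out it was 28, where 43.8% of all features were as far from 0.

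The positive end was held by ADAMTS20 (n = 34, r = 0.884, rho = 0.901), ADAMTS1 (0.766 and 0.854), MMP24 (0.776 and 0.83) and ADAMTS8 (0.773 and 0.82), each with a permutation p of 1e-05, the smallest possible, and an adjusted p of 0.000107 for rho. Within CHF and noCHF, rho was 0.971 and 0.851 for ADAMTS20 and 0.9 and 0.842 for ADAMTS1. Leaving out 2 dogs left r at 0.87 and 0.753. The negative end was held by MMP19 (r = -0.643, rho = -0.67), MMP23B (-0.597 and -0.656), MMP2 (-0.632 and -0.653), ADAMTS7 (-0.581 and -0.613) and MMP14 (-0.54 and -0.61), with adjusted permutation p from 0.000184 to 0.00103 for rho. All these relations held the same sign within both groups. TIMP1, TIMP2 and TIMP3 were on the negative side (rho = -0.543, -0.431 and -0.487, adjusted permutation p = 0.00263, 0.0275 and 0.0105) and TIMP4 on the positive side (rho = 0.473, adjusted permutation p = 0.0103).

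Of the 4 members that differed between the groups at an unadjusted p below 0.05, ADAMTS6 was lower with more heart muscle (r = -0.455, rho = -0.434, adjusted permutation p = 0.0242 and 0.0269), with a rho of -0.329 within CHF and -0.609 within noCHF. With the cardiomyocyte mean as a covariate its log2 fold change was -0.89 (edgeR FDR = 0.0709). ADAMTS19 had a rho of -0.101, and its log2 fold change was -0.69 with the covariate (FDR = 0.254). ADAMTS5 had a rho of 0.334 (adjusted permutation p = 0.109) and a log2 fold change of 0.51 with the covariate (FDR = 0.335). In that fit 7 members had an unadjusted p below 0.05, as did 7.62% of all features, with ADAMTS20 (-0.78, p = 0.0175), MMP21 (-0.49, p = 0.0245) and MMP24 (0.26, p = 0.014) added to the 4 above, and ADAMTS6 was the 1 member called at the FDR threshold, where 0.153% of all features were called.

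**Figure D5:**
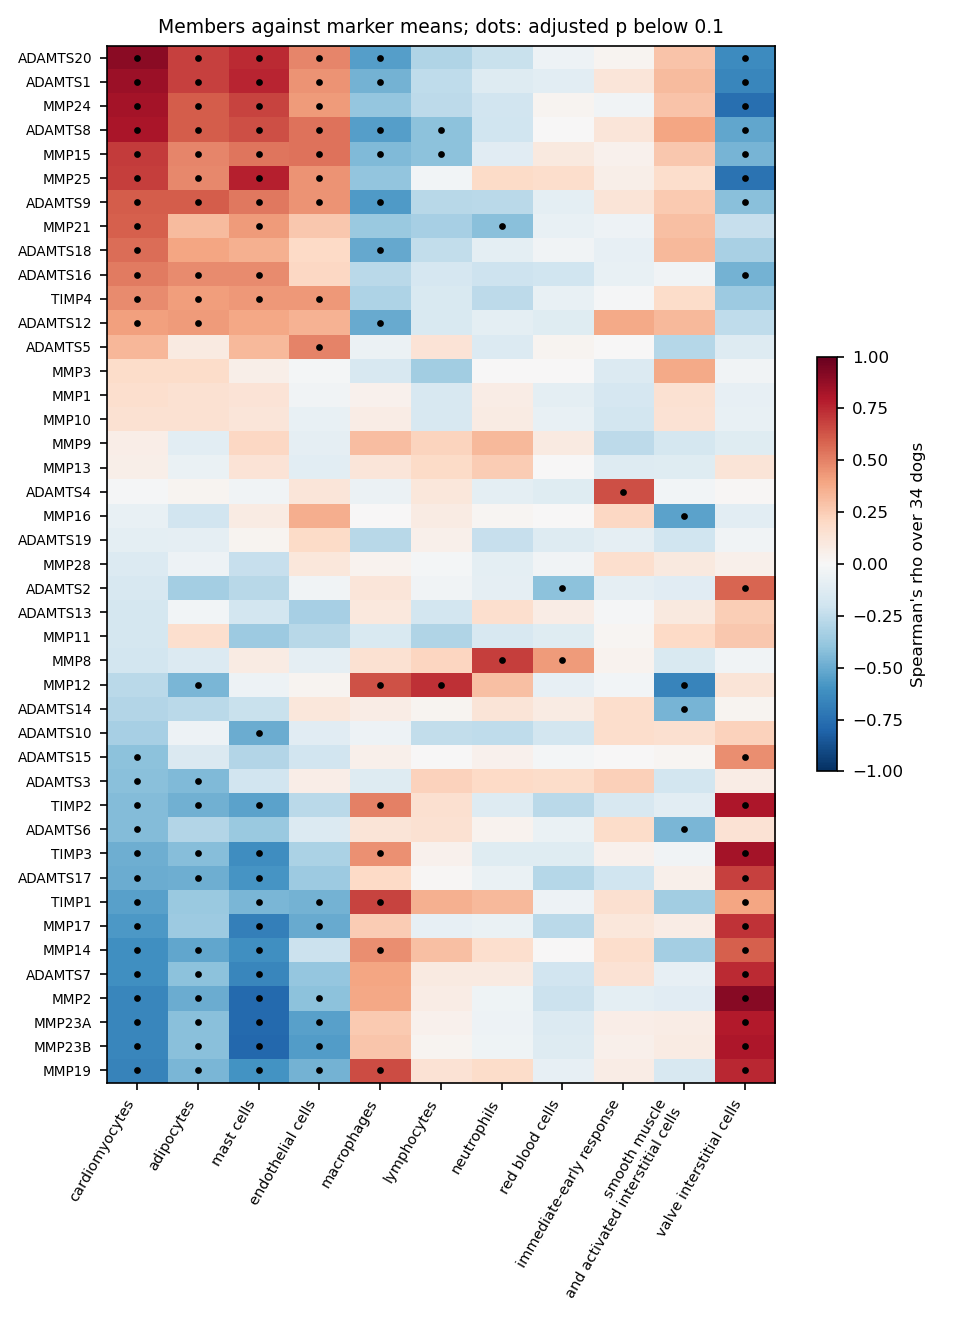
Spearman's rho over 34 dogs (colour, from -1 to 1) between the log2 CPM of each member (rows) and the mean log2 CPM of 11 marker lists (columns), with group and sex means removed; dots mark an adjusted p below 0.1. Members are ordered by their rho with the cardiomyocyte mean, from ADAMTS20 (0.901) to MMP19 (-0.67), and the valve interstitial column runs the other way.

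Other marker lists, whose relations were computed after the values had been seen and adjusted together over 10 lists, followed single members. MMP2 (r = 0.902, rho = 0.913), TIMP3 (0.852 and 0.833) and TIMP2 (0.84 and 0.807) followed the valve interstitial mean, each with a permutation p of 1e-05, the smallest possible (adjusted p = 0.000287 for rho). Macrophage markers went with MMP12 (r = 0.763, rho = 0.634), TIMP1 (0.723 and 0.677) and MMP19 (0.681 and 0.654), at adjusted permutation p from 0.00117 to 0.00405 for rho. MMP12 also went with lymphocyte markers (r = 0.744, rho = 0.73, adjusted permutation p = 0.000453 for rho), and MMP8 with neutrophil markers (r = 0.876, rho = 0.694, adjusted permutation p = 0.00138 for rho, r = 0.806 without 2 dogs).

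ADAMTS4 went with the immediate-early response genes (r = 0.703, rho = 0.647, adjusted permutation p = 0.00117 for rho). Of these 10 genes 3 had an unadjusted p below 0.05 between the groups, all lower in CHF, and FOSB passed (log2 fold change -1.52, edgeR FDR = 0.0289), while the summed level ranged from 395 to 1345 CPM in noCHF and from 432 to 960 CPM in CHF. ADAMTS6 ran against the smooth muscle list (r = -0.486, rho = -0.457, adjusted permutation p = 0.0333 and 0.0448). In that list MYH11 was at 111 ± 43.7 CPM (SD, n = 15) in CHF and 171 ± 92.0 CPM (SD, n = 19) in noCHF (log2 fold change -0.67, edgeR FDR = 0.48), and the summed level of its 6 genes had medians of 1907 and 1934 CPM. ADAMTS5 went with the endothelial mean (r = 0.479, rho = 0.496, adjusted permutation p = 0.0397 and 0.0316), whose summed level had medians of 643 CPM in CHF and 667 CPM in noCHF. Over all dogs the number of members related to a list was 22 for mast cells, 21 each for adipocytes and valve interstitial cells, 15 for endothelial cells and 13 for macrophages. The share of all features at least as far from 0 as the weakest of these members was 29.4% for mast cells, 25.8% for adipocytes, 32.9% for valve interstitial cells, 17.1% for endothelial cells and 18.6% for macrophages. It was 4 members for the smooth muscle list (7.14% of all features), 3 for lymphocytes (6.02%), 2 each for neutrophils (1.6%) and red blood cells (1.01%) and 1 for the immediate-early genes (0.0715%). How far the means of the lists follow each other or the cardiomyocyte mean was not computed, so these counts cannot be read as separate relations. Most mast cell markers were scarce, since HPGDS reached 70.1 CPM and the next, MS4A2, 10.2 CPM. The part of the listed cell types in the differences of ADAMTS6 and ADAMTS5 between the groups was not tested.

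Other genes of the pathway were tested in the same fit. Of 7 ADAMTS-like proteins tested, 13 activators and controls, 11 ADAM proteinases, 5 astacin proteinases and 19 substrates, VWF alone passed the FDR threshold. At an unadjusted p below 0.05, ADAMTSL5 (-0.34, p = 0.00524) and PCSK6 (-0.37, p = 0.0137), a proprotein convertase of the kind that activates these enzymes, had edgeR log2 fold changes below 0. ADAM9 (0.20, p = 0.0309) and ADAM28 (0.40, p = 0.0439), membrane-bound relatives, had values above 0. No astacin had such a p.

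The balance of enzyme to inhibitor was compared in 5 pairs, chosen after the values had been seen, as the difference of log2 CPM. None differed between the groups beyond the spread of permuted labels within sex. The widest gap for its spread was ADAMTS5 over TIMP3, at -4.24 ± 0.764 (SD, n = 19) in noCHF and -3.83 ± 0.641 (SD, n = 15) in CHF, a difference of 0.434 when averaged within sex (permutation p = 0.0916, adjusted p = 0.424), with 10 of 15 CHF dogs above the noCHF median. MMP2 over TIMP2 was at 1.22 ± 0.223 in noCHF and 1.12 ± 0.27 in CHF, a difference of -0.10 within sex (permutation p = 0.254, adjusted p = 0.424). These values were not scaled by feature length. MMP2 and ADAMTS5 were read from spans, whereas TIMP2 and TIMP3 were read from exons. The level within a group is therefore no measure of enzyme against inhibitor, and only the difference between the groups can be read.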

How the data were processed

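The authors aligned paired reads to canFam4 (STAR), and the deposited values are unnormalised read counts of each feature from featureCounts 2.0.3. Their recorded command assigned a read to every feature it overlapped, used no strand, left out reads that map to several places and counted both reads of a pair (71% of the counts above 0 were even). Reads in overlapping genes were therefore counted more than once, and antisense genes cannot be told apart. Of the count columns, 1 belonged to no sample and was not used.

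Of 23768 features, the 19568 that summed to 100 counts or more were tested with edgeR 4.0.16 (TMM factors 0.845 to 1.09, quasi-likelihood, sex as a fixed effect, Benjamini-Hochberg threshold 0.1) in R 4.3.3. This is the design of the study, whose tool, DESeq2 (1.42.0 here), was an alternative, with limma 3.58.1 voom and others. The 3 tools and the correlation tests were tried on simulated data. CPM are counts scaled by the TMM library sizes, correlations used log2 CPM with a prior count of 2, and permutations drew 100000 resamples, two-sided. Standard errors were derived from the test statistic and are approximate, and intervals are 95%. Groups and sexes follow the labels, each dog was 1 sample, and p-values measure the spread between dogs. Differences of a few counts in the scarce members were not detectable at this depth.

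Members and lists were chosen with earlier results of these data known. Values are printed for members with an unadjusted p below 0.05, the TIMPs, MMP2, MMP9, MMP14, ADAMTS13, ADAMTS6, ADAMTS19 and the 2 members of highest level per kilobase in each role, and others are named as examples. The relations with marker lists other than cardiomyocytes and the ratios of enzyme to inhibitor were added after the data were seen. Gene names of the features were checked against the RefSeq annotation of the same build, which lists 44 of the 47 symbols.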

Additional observations from a re-analysis of the deposited data

Results flagged for a closer look

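In 28 members, each of the 4 groups by CHF and sex was searched for a dog set apart from the rest, by the gap of the highest or lowest dog to its neighbour as a share of the group's range. Of 112 such tests 9 passed Dixon's 95% critical value, where chance alone gives about 5.6, or 1 in 20. They fell on 6 dogs.

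Among the 6 10y-MMVD-CHF females, CAV1047 had the highest ADAMTS1 (168 CPM, next 47.2, gap 0.731 of the range), the highest MMP15 (52.9 CPM, next 26.6, gap 0.633) and the lowest ADAMTS6 (4.13 CPM, next 9.78, gap 0.792). Without this dog the log2 fold change of ADAMTS6 was -0.87 (edgeR FDR = 0.124). CAV1047 also had the highest summed cardiomyocyte markers of all dogs (58280 CPM) and the lowest total counts (46185256).

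Among the 9 10y-MMVD-CHF males, CAV614 had 0 counts in the exons of TIMP4, where the next dog had 73 counts or 0.876 CPM (gap 0.74), and CAV373 had the lowest MMP14 (91.5 CPM, next 142, gap 0.553). The summed cardiomyocyte markers were at 150 CPM in CAV614 and 23380 CPM in CAV373, beside a median of 5185 CPM in this group.

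Among the 9 10y-noCHF males, CAV285 had the lowest MMP14 (110.0 CPM, next 156, gap 0.571) and the lowest ADAMTS7 (4.59 CPM, next 7.57, gap 0.513), and CAV444 had the highest MMP23B (68.0 CPM, next 44.1, gap 0.52). Among the 10 10y-noCHF females, CAV1731 had the lowest ADAMTS7 (4.08 CPM, next 6.33, gap 0.471). The summed cardiomyocyte markers were at 16100 CPM in CAV285, 209 CPM in CAV444 and 27930 CPM in CAV1731, beside a noCHF median of 3793 CPM. The part of heart muscle in the values of the flagged dogs was not tested.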

How the results depend on the processing

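The number of members called between the groups was 1, and it was 2 with DESeq2 and 0 without a filter on low counts, without the sex term, with robust dispersion or at an FDR threshold of 0.05. Leaving out each dog in turn gave 0 to 1. The number at an unadjusted p below 0.05 was 4, 7 with the cardiomyocyte mean as a covariate (where all features with such a p went from 1234 to 1492) and 3 to 6 when leaving out each dog. ADAMTS6 was below 0 in every setting, at FDR values of 0.105 with voom, without a filter and with robust dispersion and 0.211 without the sex term. The mean log2 CPM per kilobase of TIMP3 was 9.83 on its exons and 6.26 on its span. The cause of these shifts was not tested, other than the stricter threshold. No setting called a member for the interaction or for sex.

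Some estimates changed sign. ADAMTS1 was at -0.124 with voom, -0.025 without the sex term and -0.106 with the cardiomyocyte covariate, and ADAMTS7 at -0.00529 with upper-quartile factors. MMP8, at 0.426, was at -1.05 with voom and ranged from -1.01 (without CAV614) to 0.711 when leaving out each dog. When leaving out each dog the log2 fold change ranged from -0.245 to 0.0938 for ADAMTS1, -0.0093 to 0.114 for ADAMTS2, -0.0378 to 0.0502 for ADAMTS7, -0.000917 to 0.116 for ADAMTS15, -0.14 to 0.00136 for MMP2, -0.000605 to 0.125 for MMP14, -0.157 to 0.00658 for MMP15, -0.162 to 0.0295 for TIMP1 and -0.0188 to 0.0801 for TIMP2. MMP13 was not kept by edgeR's filterByExpr, so that setting gave no value for it.

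At this depth the scarce members, with a few counts per dog, limit what can be seen. A rank test with permutation within sex gave p = 0.00033 for ADAMTS6, 0.00303 for ADAMTS19, 0.011 for ADAMTS5 and 0.0814 for MMP13, with no adjustment over all features.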
